A study of Mus musculus with 4 samples.

Results

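This account concerns 689 promoter regions whose chromatin was called open in wild-type microglia and had no deposited peak in microglia lacking the transcription factor IRF8. They were chosen from the peak lists of 4 ATAC-seq libraries, an assay in which a transposase inserts sequencing adapters into accessible DNA. The height of stacked fragment ends at the summit of a peak is its pileup, and it was scaled here to 1000000 sequenced tags, which gives the normalised pileup. Peaks on the 19 autosomes with a normalised pileup of at least 0.25 were merged over the libraries into 93336 regions. A region became a member when such a peak lay on it in both WT libraries, when no row of either IRF8KO list touched it, weak rows included, and when it lay within 1 kb of the transcription start site (TSS) of a protein-coding or lncRNA gene. Promoter regions of all kinds numbered 23827, so the members were 2.89% of them. The pileups and absences that define the members are therefore given as descriptions, with no test.

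The microglia were sorted by flow cytometry after isolation without enzymes from brains of 3-month-old mice. The WT group held 2 libraries and the IRF8KO group 2, all from untreated C57BL/6 mice. The labels give the same protocol for both groups, but the tags were 50 bp long in both WT lists and 49 bp in both IRF8KO lists, so sequencing and genotype cannot be told apart. The labels give neither the nature of the IRF8KO allele nor the cells in which the gene was lost. They do not say whether the replicates came from separate animals, so the spread between libraries and any p-value from it may be technical. In bulk libraries, fewer cells with an open site and less opening per cell cannot be told apart.

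IRF8, an interferon regulatory factor of myeloid cells, is needed for the normal state of microglia. It binds DNA poorly alone and usually pairs with the ETS factor PU.1 on a joint sequence, the ETS-IRF composite element, in which a GGAA core for PU.1 is followed by GAAA for the IRF. With other IRF proteins it also binds the interferon-stimulated response element (ISRE), which repeats GAAA. Many composite elements in macrophages lie in enhancers, whereas the promoters of broadly expressed genes tend to be CpG islands bound by SP/KLF, NFY, NRF1 and ETS proteins.

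Examples of the members' sequences are shown because they hold the motifs by which the members are described below. Each is 60 bases of GRCm38 (mm10), 5′ to 3′ on the strand of the match, with the match nearest the summit in capitals. The Laptm5 stretch holds another ISRE match, GAAACAGAAA, which is left in lower case. The ETS-IRF composite was searched as GGAA, any 2 bases and GAAA, and the ISRE as GAAA, any 2 bases and GAAA. Both strands were searched in a window of 100 bp on each side of a summit. That summit was the one of the highest normalised peak in any library, which for members is the stronger WT peak. The first GAAA cannot also read GGAA, so a stretch cannot match both from the same start. Of all 23827 promoter regions, 3.00% held the first and 2.51% the second. The Rasgrf2 and AU022793 members had the highest pileups of all. Ciita belongs to the antigen presentation list and Siglech to the homeostatic microglia list, and Sla and Laptm5 are leukocyte genes with an ISRE.
AU022793, ETS-IRF, chr15:39962535-39962594, + strand: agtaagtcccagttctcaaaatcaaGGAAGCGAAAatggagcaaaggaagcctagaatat
Rasgrf2, ETS-IRF, chr13:92030805-92030864, − strand: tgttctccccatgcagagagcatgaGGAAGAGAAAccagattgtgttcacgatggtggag
Ciita, ETS-IRF, chr16:10488050-10488109, + strand: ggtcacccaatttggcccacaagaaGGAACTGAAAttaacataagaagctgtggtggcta
Siglech, ETS-IRF, chr7:55767164-55767223, − strand: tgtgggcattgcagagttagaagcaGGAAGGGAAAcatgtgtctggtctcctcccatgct
Sla, ISRE, chr15:66813084-66813143, − strand: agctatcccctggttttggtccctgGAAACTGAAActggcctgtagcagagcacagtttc
Laptm5, ISRE, chr4:130916867-130916926, − strand: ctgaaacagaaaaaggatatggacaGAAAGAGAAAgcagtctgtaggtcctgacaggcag

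Before the members are described, the libraries need a short account. The lists were made from 46948938 and 48896408 tags in WT and from 78793572 and 66224648 in IRF8KO, a mean depth in IRF8KO 1.51 times that in WT. They held 140958 and 175486 distinct autosomal peaks in WT and 179013 and 170783 in IRF8KO. At the threshold of 0.25 the numbers were 79771, 69104, 50837 and 68931, and IRF8KO replicate 1 stood apart as the lowest. Promoter regions open in all 4 libraries had a median normalised pileup of 1.90 and 1.62 in WT and of 1.12 and 1.63 in IRF8KO, again lowest in IRF8KO replicate 1. The strongest peak within 1 kb of an Irf8 start had a normalised pileup of 2.07 and 1.49 in WT and of 0.863 and 1.36 in IRF8KO. A peak at the promoter says nothing about whether the gene's product is lost, so it does not check the labels.

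Markers of other cells were read as the summed normalised pileup of peaks at their starts. A peak here is one of at least 0.25, so weaker rows were not counted. All 13 microglial markers had a peak in both WT libraries and 12 did in both IRF8KO libraries, with sums of 35.6 and 26.7 in WT and of 16.7 and 25.2 in IRF8KO. The marker without a peak was Sall1, a microglial identity factor, at 2.17 and 2.05 in WT. Of 6 endothelial markers, 5 and 4 had a peak in WT and 4 and 3 in IRF8KO, and the sums were higher in WT at 8.12 and 6.63 than in IRF8KO at 1.81 and 2.30. Most of that was Cdh5, at 5.86, 4.81, 0.647 and 0.936. The 6 oligodendrocyte markers also summed higher in WT at 2.04 and 1.78, with 2 and 3 of them detected, than in IRF8KO at 0.495 and 0.982, with 1 of them detected in each. The 6 neuron markers summed to 0.767 and 0.818 in WT, with 2 detected in each library, and to 0 and 0.604 in IRF8KO, with none and 2 detected. The astrocyte sums overlapped between genotypes. The 11 B, T or NK cell markers, with 2 detected in each library, summed to 1.55 and 1.57 in WT and to 3.92 and 3.93 in IRF8KO. Of that, Cd3d was 0.873 and 1.08 in WT and 3.44 and 3.44 in IRF8KO, and Pax5, the other detected marker, was 0.682, 0.491, 0.482 and 0.483. The 8 border macrophage markers, with 3 detected in each, summed to 1.04 and 0.920 in WT and to 2.42 and 3.71 in IRF8KO. None of the 11 monocyte or neutrophil markers had a peak in WT, and 2 had one in IRF8KO replicate 2. The part of any of these cells in the results below was not tested.

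Beside the 689 members, the converse class, open in both IRF8KO libraries with no WT row, held 475 promoter regions, or 1.99% of all, and 14995 promoter regions, or 62.9%, were open in all 4. The number of members rests on each library: there were 1131 without WT replicate 1, 1597 without WT replicate 2, 985 without IRF8KO replicate 1 and 1241 without IRF8KO replicate 2.

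WT-only regions were a smaller share of promoter regions than of distal regions. WT-only regions more than 1 kb from any TSS numbered 5350, or 7.7% of the 69509 distal regions. WT-only regions of both kinds numbered 6039, or 6.47% of all regions, and IRF8KO-only regions 3185, or 3.41%. The members thus made up 11.4% of the WT-only regions (95% Wilson interval 10.6 to 12.2), whereas promoters made up 39.6% of the regions open in all 4 (39.1 to 40.1) and 14.9% of the IRF8KO-only regions (13.7 to 16.2). These intervals, and those that follow, cover counting error only and not the spread between animals. Without 1 library in turn, the promoter share of WT-only regions was 12.7% to 13.9%. By chromosome, the members ranged from 1.06% of the promoter regions of chromosome 18 to 3.82% on chromosome 5.

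The members lay at 745 genes, 591 protein-coding and 154 lncRNA, or 4.72% of the 15782 genes with any promoter region. Of these genes, 42 held 2 or more members, which share a target and are not independent, and Elavl4 and Eva1a held 4 each. The median normalised pileup was 0.511 in WT replicate 1 (interquartile range 0.362 to 0.788, highest 6.03) and 0.429 in WT replicate 2 (0.327 to 0.614, highest 4.54). Most members were thus weak beside promoter regions open in all 4 libraries. In the weaker WT library 232 members reached 0.5, 52 reached 1 and 6 reached 2. WT replicate 1 gave the higher value at 485 members, and the median ratio of replicate 2 to replicate 1 was 0.864. A −log10 q of at least 2 in both WT lists was reached by 525 members.

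**Figure D1:**
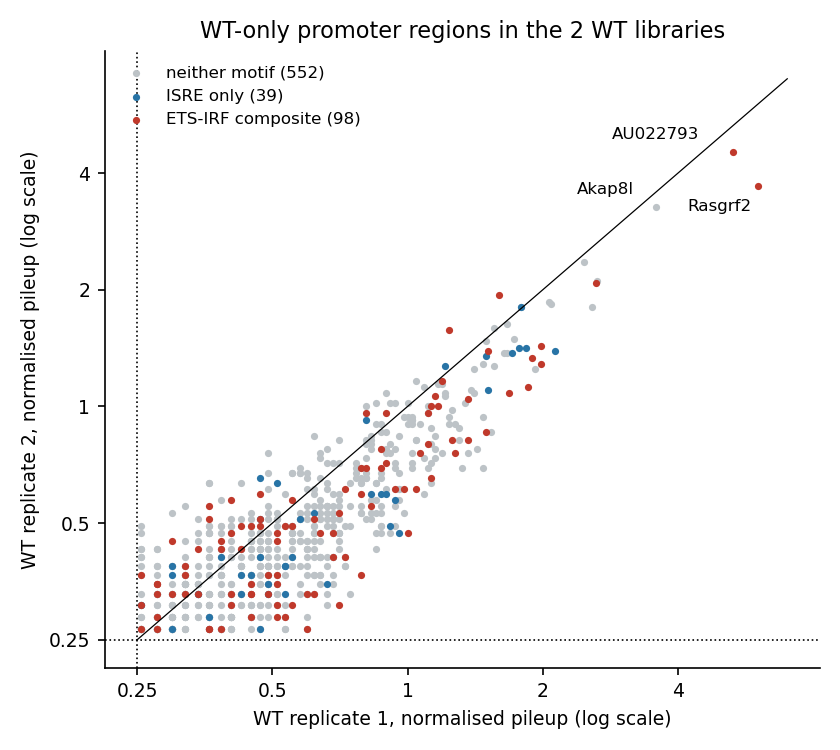
Normalised pileup of each of the 689 members in WT replicate 1 (x axis) and WT replicate 2 (y axis), both on log scales, coloured by the motif in the summit window. Solid line, equal values; dotted lines, the threshold of 0.25. The points crowd near the threshold, with medians of 0.511 and 0.429, and AU022793, Rasgrf2 and Akap8l stand highest.

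Depth bears on what an absent row means. A region at the threshold in WT would, at the same normalised height, have a pileup of 19.7 in IRF8KO replicate 1 and of 16.6 in replicate 2. Scaled also by how high the promoter regions open in all 4 stood in each IRF8KO library, the pileups would be 13.2 and 15.8. The lowest pileups in these lists were 8 and 7 and the median was 12 in both, so rows below that height were deposited. The members just inside the threshold lay at Gm15848 (0.256 in WT replicate 1 and 0.409 in replicate 2), Afmid (0.256 and 0.266) and A930037H05Rik (0.256 and 0.327). The regions just outside lay at Kif1a (0.277 and 0.245), Srgap2 (0.447 and 0.245) and Tmem183a (0.490 and 0.245).

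The 25 strongest members lay at 24 nearest genes, and 13 of them were more than 1000 bp from any IRF8KO row. The region of AU022793, a lncRNA, had a normalised pileup of 5.30 in WT replicate 1 and 4.54 in replicate 2, and its summit lay 32 bp upstream of a start. That of Rasgrf2, which encodes an exchange factor that activates Ras, reached 6.03 and 3.70, with its summit 6 bp inside a transcript and in a coding exon. No IRF8KO row touched either of them, and in both WT libraries they were the highest of all members. The nearest IRF8KO row was 514 bp from the AU022793 region and 7922 bp from the Rasgrf2 region. Both held an ETS-IRF match, 52 and 63 bp from the summit.

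At both genes little signal was left at any start in IRF8KO. The strongest row within 1 kb of any AU022793 start was 5.30 and 4.54 in WT, absent in IRF8KO replicate 1 and 0.136 in replicate 2. For Rasgrf2 it was 6.03 and 3.70 in WT and 0.140 and 0.151 in IRF8KO. Phkg1, which encodes a catalytic subunit of phosphorylase kinase, had a member of 2.64 and 2.11, with no row in IRF8KO replicate 1 and at most 0.151 in replicate 2 anywhere near its starts. Its summit lay 10 bp inside the transcript, and the nearest IRF8KO row was 4876 bp off.

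Other strong members belonged to genes that had a promoter region open in all 4 libraries, at the same or another start. Akap8l, a nuclear anchoring protein of the AKAP family, had an intronic member of 3.58 and 3.27, 324 bp downstream of a start and 14002 bp from the nearest region open in all 4. The strongest row at any of its starts was 5.30 and 4.77 in WT and 2.75 and 3.76 in IRF8KO. A member in an exon of the lncRNA 4933421O10Rik, also within 1 kb of a start of Ube2j1, an enzyme of protein degradation at the endoplasmic reticulum, was 2.47 and 2.35 and lay 282 bp from a region open in all 4, where the strongest row was 4.64 and 5.62 in WT and 4.39 and 5.90 in IRF8KO. Pkd1, the polycystin-1 gene, had a member of 2.07 and 1.86 at 2410 bp from a region open in all 4, and Ggps1, a synthase of the isoprenoid used to anchor small GTPases, had one of 2.58 and 1.80 at 200 bp. In all, 15 of the 25 had a region open in all 4 at some start of the same gene, which for Carmil1 and Prrc2c was not near the member: the nearest region open in all 4 lay 74250 and 28716 bp away.

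**Figure D2:**
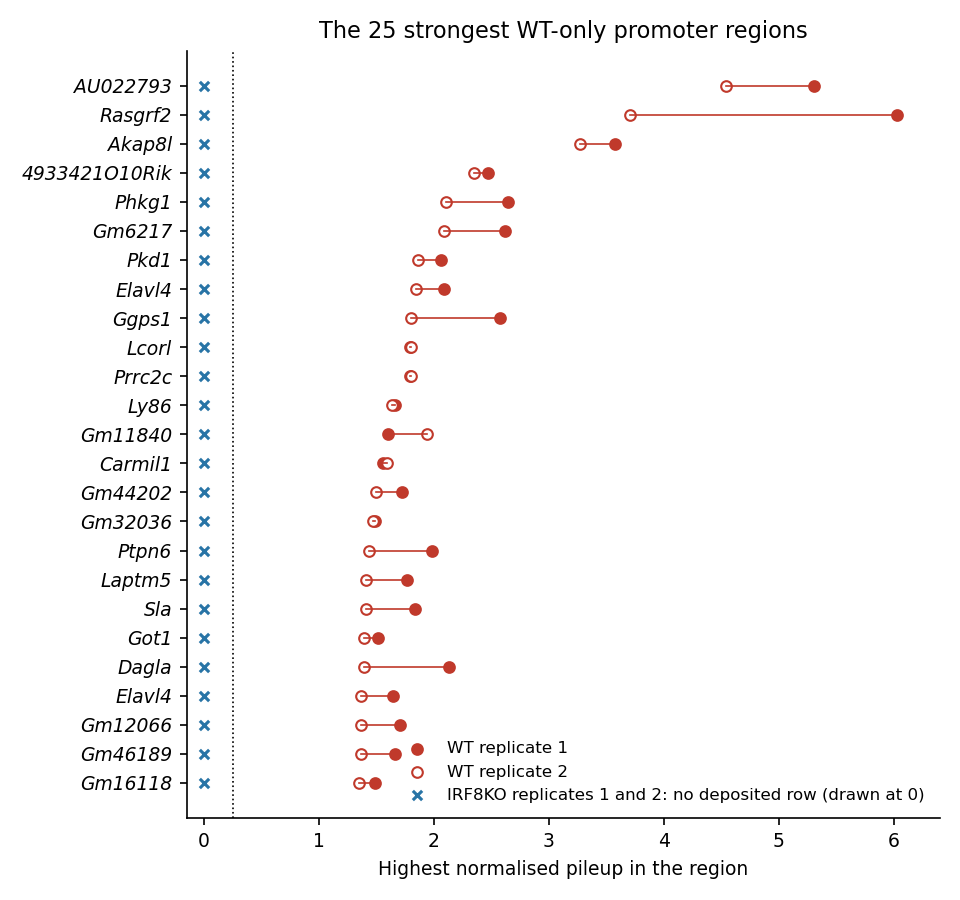
Highest normalised pileup in the 25 strongest members, named by nearest gene, in WT replicate 1 (filled), WT replicate 2 (open) and the IRF8KO libraries (crosses, drawn at 0 because their lists hold no row on the region). The dotted line marks 0.25. AU022793, Rasgrf2 and Akap8l lie above 3 in both WT libraries and all the others below 3.

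Ly86 encodes MD-1, the partner of the receptor CD180 on myeloid and B cells, and had 2 members. The region over its start was 1.66 and 1.64 and the region 800 bp downstream was 1.02 and 0.920, and no IRF8KO row lay within 1 kb of any of its starts. Ptpn6, which encodes the inhibitory phosphatase SHP-1, had a member of 1.98 and 1.43 with an ETS-IRF match, while its strongest start row was 3.64 and 3.56 in WT and 2.14 and 2.94 in IRF8KO.

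Laptm5, a lysosomal membrane protein of blood cells, had an intronic member of 1.77 and 1.41 with an ISRE match, 2295 bp from the nearest IRF8KO row. Its strongest start row was 5.07, 4.17, 4.01 and 4.92, and the genotypes overlapped. Sla, an adaptor that dampens antigen receptor signals, had a member of 1.83 and 1.41 with an ISRE match, only 85 bp from an IRF8KO row. Its strongest start row was 2.71 and 2.15 in WT and 1.10 and 2.11 in IRF8KO. Both IRF8KO start rows of Sla were below both WT rows, replicate 2 only slightly so. Replicate 1 was also the lowest library at promoter regions open in all 4, as given above.

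The other named strong members lay at genes of mixed function. Elavl4, a neuronal RNA-binding protein, had members of 2.09 and 1.84, of 1.64 and 1.37, of 1.21 and 1.27, and of 0.447 and 0.307, and the nearest IRF8KO row was 15227 bp or more from each of them. IRF8KO rows at another of its starts reached 0.228 and 0.332. The neuron markers given above also summed lower in both IRF8KO libraries, and their part in the Elavl4 values was not tested. Carmil1, a regulator of actin capping, had 1.55 and 1.60, Prrc2c had 1.79 and 1.80 with an ISRE match, and Lcorl, a corepressor-like factor, had 1.79 and 1.80. Got1, the cytosolic aspartate aminotransferase, had 1.51 and 1.39 with an ETS-IRF match. Dagla, a lipase that makes the endocannabinoid 2-arachidonoylglycerol, had 2.13 and 1.39 with an ISRE match, and its strongest start row in IRF8KO was 0.508 and 0.453. The remaining members of the 25 belonged to Gm genes without a described function, from 1.35 to 2.09 in the weaker WT library, and Gm6217, Gm32036 and Gm16118 had no IRF8KO row near any start.

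Most members flanked the start rather than covering it. In this they differed from promoter regions open in all 4 and were like the IRF8KO-only regions. Only 124 members, or 18% (15.3 to 21.0), held a TSS, against 73.2% (72.4 to 73.9) of the regions open in all 4 and 18.7% (15.5 to 22.5) of the IRF8KO-only regions. The summit lay within 100 bp of a TSS in 17.4% of members, 45.1% of the regions open in all 4 and 14.5% of IRF8KO-only regions. The median distance was 452 bp in members, 117 bp in regions open in all 4 and 452 bp in IRF8KO-only regions. By summit, 394 members (57.2%) were intronic, 137 lay between genes, 80 in a UTR, 43 in a coding exon and 35 in a lncRNA exon. The intronic share was 37.0% of all promoter regions, 29.4% of those open in all 4 and 50.5% of IRF8KO-only regions. The nearest TSS was that of a lncRNA for 20.2% of members (17.3 to 23.3) and for 10.1% (9.61 to 10.6) of the regions open in all 4. The IRF8KO-only regions were alike in this, at 19.8% (16.5 to 23.6).

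**Figure D3:**
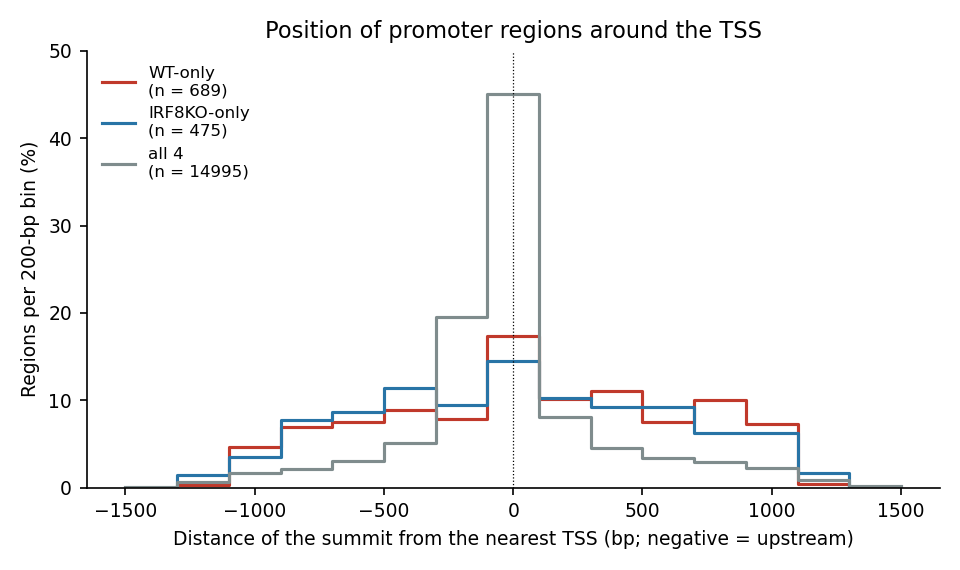
Share of promoter regions (y axis, %) by distance of the summit from the nearest TSS (x axis, bp, negative upstream, bins of 200 bp) for WT-only, IRF8KO-only and all-4 regions. The central bin holds 17.4% of WT-only, 14.5% of IRF8KO-only and 45.1% of all-4 regions, and the WT-only line is nearly flat on both sides.

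The members were short and poorer in CpG than promoter regions open in all 4. Their median length was 176 bp, against 594 bp for promoter regions open in all 4 and 203 bp for IRF8KO-only regions. In the summit window their median GC content was 51.2% against 62.2%. The median ratio of observed to expected CpG was 0.355 against 0.761, and it passed 0.6 in 23.7% of members (20.6 to 27.0) and 68.4% (67.6 to 69.1) of the regions open in all 4. Repeat-masked bases were present in 56.2% of member windows (52.4 to 59.8) and in 38.7% (37.9 to 39.4) of the others. The IRF8KO-only promoter regions had much the same make-up, with a CpG ratio of 0.351 and masked bases in 53.7% (49.2 to 58.1). Both one-genotype classes were also weaker than the regions open in all 4, and the part of height and length in these differences of position and sequence was not tested.

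Of the 17 motifs searched, the ETS-IRF composite was the most frequent in the members. It occurred in 98 of the 689 members, or 14.2% (11.8 to 17.0). It occurred in 2.39% of the promoter regions open in all 4 and in 4 of the 475 IRF8KO-only regions, or 0.842% (0.328 to 2.14). Among WT-only distal regions it was more frequent than in the members, at 20.7%. The ISRE occurred in 44 members, or 6.39% (4.79 to 8.46), against 2.14% of the regions open in all 4, 3.16% of IRF8KO-only and 6.73% of WT-only distal regions. Either match was present in 137 members (19.9%) and both in 5, so 552 members held neither. These are shares of letter matches, which are neither bound sites nor causes. The ETS-IRF share was 9.14% without WT replicate 2 and 10.7% to 12.2% without each of the other libraries in turn.

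Motifs of other factors were distributed differently. AP-1 (TGANTCA) was in 3.92% of members and 14.7% of IRF8KO-only promoter regions, against 4.69% of all promoter regions. CEBP (TTGCNNAA) was in 7.98% of members and 13.5% of IRF8KO-only regions, against 6.72% of all. PU.1 alone (GAGGAAGT), which can share its GGAA with a composite match, was in 5.52% of members, 4.63% of IRF8KO-only and 4.84% of all promoter regions. The elements of CpG-rich promoters were rarer in the members, as in the IRF8KO-only class, than in regions open in all 4: SP/KLF (GGGCGGGG) was in 5.66% against 22.7% of the regions open in all 4, NFY (CCAATCA) in 2.76% against 8.29%, and the promoter ETS element (CCGGAAGT) in 0.435% against 5.83%. The IRF8KO-only promoter regions held them at 2.32%, 2.11% and 0.211%. Among CpG-poor regions alone (ratio up to 0.6), the ETS-IRF share was 16.0% (13.1 to 19.3) in members, 4.11% (3.58 to 4.71) in regions open in all 4 and 0.822% (0.280 to 2.39) in IRF8KO-only regions.

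**Figure D4:**
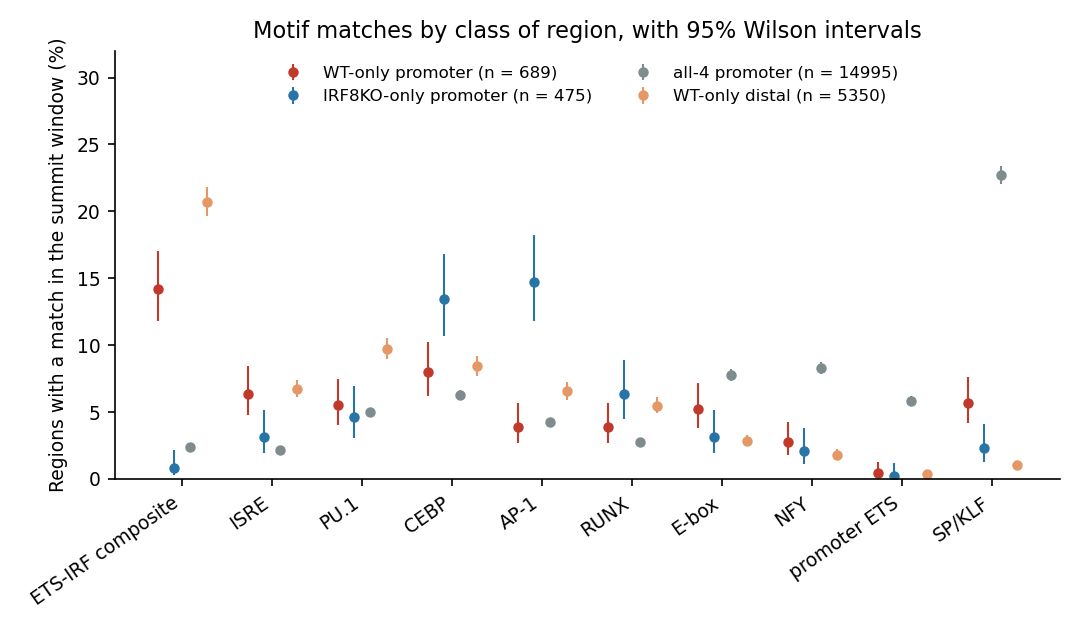
Share of regions (y axis, %) with a match to each of 10 motifs (x axis) in the summit window, with 95% Wilson intervals, by class of region. The ETS-IRF composite is at 14.2% of WT-only promoter regions, 0.842% of IRF8KO-only and 2.39% of all-4 promoter regions, and AP-1 is highest in the IRF8KO-only class at 14.7%.

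The composite matches sat near the summits. Of the 98 sites in members, 43 or 43.9% (34.5 to 53.7) were within 25 bp of the summit, compared with 28.9% (24.5 to 33.7) in regions open in all 4 and 44.1% (41.3 to 47.0) in WT-only distal regions. The median offset was 31, 47 and 29 bp. The most frequent form was GGAAGTGAAA, with 24 sites, followed by GGAACTGAAA with 17 and GGAAGAGAAA with 16. Members with a composite had a median normalised pileup of 0.575 and 0.491 in the WT libraries and those with neither motif 0.490 and 0.429. The members were split into 4 classes of nearly equal size by pileup in the weaker WT library. From weak to strong the ETS-IRF share was 12.1% (8.08 to 17.8), 12.8% (8.60 to 18.6), 11.6% (7.65 to 17.3) and 20.3% (15 to 27.0). These classes rest on the pileup that the rule used, and the difference was not tested.

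How far a member lay from the nearest IRF8KO row varied widely, and the composite share varied with it. The median distance was 387 bp (interquartile range 126 to 1255). Of the members, 238 (34.5%) had a row within 200 bp, 191 (27.7%) had none within 1000 bp and 20 had none within 10 kb. In the converse class the median was 337 bp, and 40.8% had a row within 200 bp. The ETS-IRF share was 9.66% (6.53 to 14.1) in the 238 nearest members, 13.5% (9.84 to 18.1) in the 260 beyond 200 and up to 1000 bp and 20.9% (15.8 to 27.3) in the 191 beyond. The ISRE share was 4.62%, 5.38% and 9.95%. The farther members were also longer, with a median of 226 bp against 139 bp, and poorer in CpG, with ratios of 0.271 against 0.467, and the part of these in the difference was not tested.

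**Figure D5:**
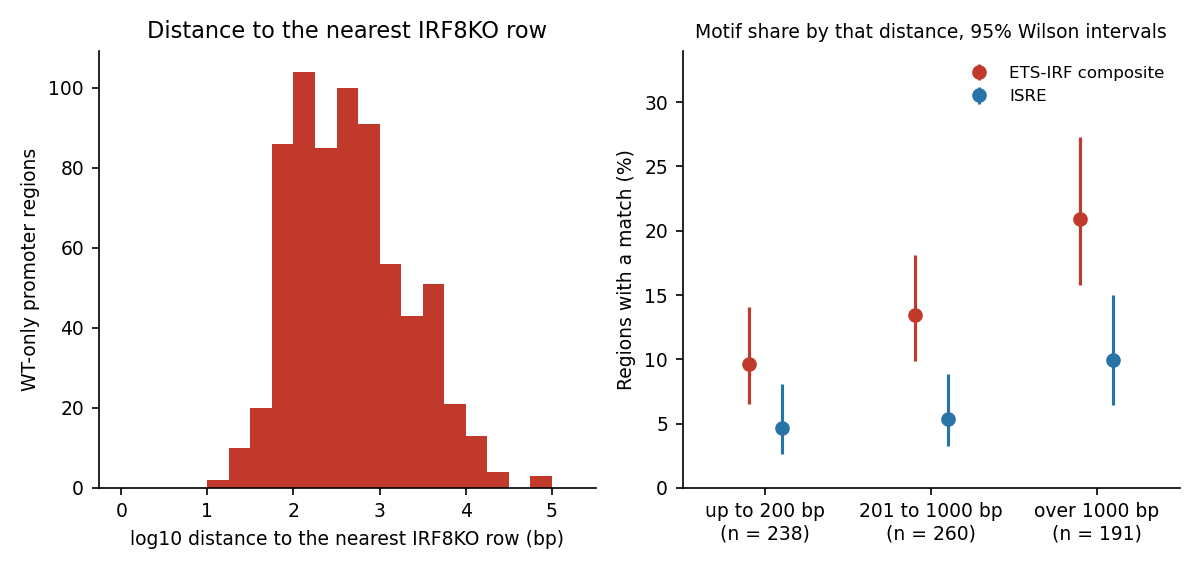
Left, number of members by log10 distance in bp to the nearest IRF8KO row. Right, share of members (%) with an ETS-IRF or ISRE match by that distance, with 95% Wilson intervals. The ETS-IRF points are at 9.66%, 13.5% and 20.9% from the nearest to the farthest class. The intervals cover counting error only, and the difference was not tested.

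Most genes with a member also had a promoter region open in all 4 libraries. Another promoter region open in all 4 libraries lay within 1 kb of a start of the same gene for 499 members (72.4%) and for 557 of the 745 genes (74.8%). The number was 775 to 1197 without 1 library in turn, each more than 1.5 times the full count, and it grew with the number of members. Of all promoter regions, 62.9% were open in all 4. The share of all genes with such a region was not computed, so whether 74.8% is particular to these genes was not tested. At the other end, 98 members lay at 89 genes, 44 of them protein-coding, with no IRF8KO row of any height within 1 kb of any start. The share of all genes without such a row was not computed. The rule picked members by the absence of IRF8KO rows, so this count is a description only. Of those 98, 21 held an ETS-IRF match (21.4%, 14.5 to 30.5) and 10 an ISRE match (10.2%, 5.64 to 17.8).

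Some genes with no IRF8KO row at any start encode receptors, enzymes and GTPases of immune cells; these were picked for description after their values were seen. Timd4, which encodes the phosphatidylserine receptor TIM-4 of phagocytes, had 0.319 and 0.389 in WT, 86 bp upstream of its start, and the nearest IRF8KO row was 16517 bp away. Kmo, the kynurenine 3-monooxygenase of tryptophan breakdown, had 0.298 and 0.368 over its start with an ISRE match. Lilra5, a leukocyte immunoglobulin-like receptor, had 0.447 and 0.327 with an ETS-IRF match. All of them were weak, close to the threshold in at least 1 WT library.

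Values were higher at Gimap1, Ms4a4c, Hc and Apold1. Gimap1, a GTPase of immune cells, had 0.788 and 0.532, and its relative Gimap9 had 0.319 and 0.348. Ms4a4c, of a membrane protein family of leukocytes, had 0.682 and 0.409, and the nearest IRF8KO row was 26257 bp away. Hc, the complement C5 gene, had 0.682 and 0.532 at 15753 bp from the nearest IRF8KO row. Ptprcap, which encodes a partner of CD45, had 0.383 and 0.266. Apold1, a gene known from endothelial cells, had 1.21 and 1.06. Acvrl1, the endothelial receptor ALK1, is not among the genes without an IRF8KO row and had 2 members of 0.873 and 0.695 and of 0.447 and 0.307, and its strongest start row was 2.15 and 2.25 in WT and 0.216 and 0.287 in IRF8KO. Endothelial markers were lower in the IRF8KO libraries too, as given above, and their part in the Apold1 and Acvrl1 values was not tested.

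The Timd4 promoter is printed because the ETS-IRF match lies in a member that covers the start. The 250 bases before the RefSeq start, from the RefSeq promoter table of GRCm38.p6, run on the + strand of chr11:46810549-46810798. The capitals mark the composite GGAAGTGAAA, the most frequent form among the members, and a match of the MAF site TGCTGAC on the other strand. The MAF site is in 3.48% of members and 3.37% of all promoter regions. The member's summit lay 18 bp from the composite.
Timd4: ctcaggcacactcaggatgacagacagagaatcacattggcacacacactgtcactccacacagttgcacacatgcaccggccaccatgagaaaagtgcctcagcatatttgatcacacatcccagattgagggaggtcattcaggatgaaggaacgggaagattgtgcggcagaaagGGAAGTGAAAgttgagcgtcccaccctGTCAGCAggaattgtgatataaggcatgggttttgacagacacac

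Of the gene lists examined, the homeostatic microglia list held the most members, with 6 of 28 genes (21.4%), against 4.72% of all genes with a promoter region. None of its genes had an IRF8KO-only region. Over all genes that share was 3.33%, low enough that a list of 28 genes can hold none. C1qb, a subunit of complement C1q, had a member of 1.13 and 0.716 upstream of its start, and its strongest start row was 7.43 and 5.56 in WT and 4.0 and 4.82 in IRF8KO. Serinc3, a membrane protein that incorporates serine into lipids, had members of 0.809 and 0.920 and of 1.13 and 0.634, with start rows of 5.58, 4.11, 3.48 and 5.48. Adgrg1, the adhesion receptor GPR56, had a member of 0.660 and 0.552, and start rows of 1.60 and 1.88 in WT and of 0.698 and 1.48 in IRF8KO. In C1qb and Adgrg1 both IRF8KO start rows were below both WT rows, and in Serinc3 the genotypes overlapped. Promoter regions open in all 4 had a median ratio to the WT mean of 0.669 in IRF8KO replicate 1 and 0.952 in replicate 2. The part of this in the start rows was not tested.

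Aif1, which encodes the microglial protein IBA1, had a member of 0.383 and 0.409 and start rows of 1.94, 2.0, 0.939 and 1.37. Siglech, a sialic acid-binding receptor, had a member of 0.341 and 0.429 that held the ETS-IRF match shown above, and start rows of 3.05, 2.27, 1.24 and 2.40. Every one of the 6 genes of this list with a member kept a promoter region open in all 4 libraries, and the members were further sites at these genes. Their values were near the threshold in Aif1 and Siglech.

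In the antigen presentation list 3 of 25 genes had a member, or 12%, against 4.72% of all genes. None had an IRF8KO-only region, and at the share of 3.33% over all genes a list of 25 can also hold none. Ciita, the master regulator of MHC class II genes, had 0.362 and 0.266 with the composite shown above, 199 bp upstream of a start. Its strongest start row was 1.81 and 1.41 in WT and 0.140 and 0.151 in IRF8KO, and no promoter region of the gene was open in all 4. Nlrc5, the regulator of MHC class I genes, had a member of 0.426 and 0.389 and start rows of 1.98, 0.920, 0.673 and 1.42. Cd80, a ligand that costimulates T cells, had a member of 0.298 and 0.266, with a −log10 q of 0.557 and 0.419. Its strongest start row was 0.618 and 0.286 in WT, absent in IRF8KO replicate 1 and 0.664 in replicate 2, the highest of the 4. Among these, Ciita alone had start rows in IRF8KO that were all below 0.25.

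In 3 other lists the share of genes with a member was 2.13% (other myeloid regulators), 7.14% (Toll-like receptor and inflammasome) and 6.90% (disease-associated microglia), against 4.72% of all genes, and the IRF8KO-only regions given below stand against 3.33% of all genes. Of 47 other myeloid regulators only Mef2c, a MADS-box factor, had any, with 3 members of 1.15 and 0.777, of 0.809 and 0.511, and of 0.277 and 0.266, beside strongest start rows of 8.99, 6.56, 5.70 and 8.41. IRF8KO-only regions lay at 3 genes of this list, Id3, Nfkb1 and Mef2c itself. Of 28 Toll-like receptor and inflammasome genes, Tlr2 had a member of 0.469 and 0.654 with an ISRE match in the summit window but outside the region, and Myd88, the adaptor of these receptors, shared one of 0.554 and 0.491 with Acaa1a. IRF8KO-only regions lay at 3 others of these genes, Il1a, Nlrc4 and Tlr3. Of 29 disease-associated microglia genes, Fabp5, a fatty acid carrier, had 0.362 and 0.266 and Gpnmb, a lysosomal glycoprotein, 0.256 and 0.286. The strongest start row of Gpnmb was these same values in WT and 0.254 and 0.393 in IRF8KO, and 2 genes of this list, Igf1 and Lilrb4a, had an IRF8KO-only region. Tlr12, a receptor not in the list counts above, had 2 members, of 1.19 and 0.757 over its start and of 0.618 and 0.470 upstream.

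No gene of the interferon-stimulated list had a member, out of 50 with a promoter region, and 2 of them, Gbp3 and Oas2, had an IRF8KO-only region. The 11 genes of IRF and BATF factors had none either, and Irf5 had an IRF8KO-only region. Lists of border macrophage (7 genes), monocyte or neutrophil (4), B, T or NK cell (3), astrocyte (5), neuron (5), oligodendrocyte (7), endothelial or pericyte (8) and housekeeping genes (10) had no member. IRF8KO-only regions lay at 2 of the border macrophage genes, Ms4a7 and Siglec1, and at 1 of the B, T or NK cell genes, Klrb1c. With a share of 4.72% over all genes, the smaller of these lists would hold less than 1 gene at that rate.

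Promoters chosen by sequence and not by peaks were also compared. Of 65919 promoters running from 250 bp before to 50 bp after a start, 1774 held an ETS-IRF match. Of these, 40.7% and 38.9% carried a peak of at least 0.25 in WT and 35.01% and 36.9% did in IRF8KO. The mean was 39.8% ± 1.28 (SD, n = 2) in WT and 36.0% ± 1.36 (SD, n = 2) in IRF8KO, and both IRF8KO values lay below both WT values. The difference was −3.83 percentage points. Its p from a two-sided exact permutation test was 0.333, which is the lowest value possible with 2 libraries against 2, and 0.667 after Benjamini-Hochberg adjustment over 18 sets of promoters. All promoters together had 43.3% and 42.6% in WT and 40.4% and 42.6% in IRF8KO, a difference of −1.43 points (exact permutation p of 0.667). The CTCF core and SP/KLF sets differed by −3.63 and −3.05 points, so a difference of this size was not particular to the composite.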

How the data were processed

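ATAC-seq was done on 2 WT and 2 IRF8KO samples of sorted microglia. Per the submitters' processing notes, reads were handled with Bowtie2 and MACS2 2.1.1.20160309 on mm10; the Bowtie2 version is not given in the sources used here. Each library was called alone per the file headers, with a shift of -37 bp, an extension of 73 bp and a p cutoff of 0.01. The deposited values are the pileup signal, the fold enrichment (a ratio) and −log10 p and q, per the file headers. Rows with several summits were reduced to distinct peaks. Pileup was divided by the header's total tags and multiplied by 1000000. Peaks were merged by overlap of at least 1 bp. Starts came from GENCODE M21, for protein-coding transcripts and lncRNA genes. Wilson intervals are at 95%. Analyses used Python 3.11.15, pandas 2.3.3 and scipy 1.17.1, and the region and motif steps were tested on simulated data. Peak lists hold no reads, so no count model was used, and precision rests on the tags per library.

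The naming rule covered the 25 strongest members by the weaker WT pileup and members at listed genes. It also covered the 15 strongest with an ETS-IRF or ISRE match and 3 regions on each side of the threshold. Not every region under this rule is named above. Other genes with members, Acvrl1, Eva1a and Tlr12 among them, were picked after their values were seen. The members and lists were chosen with earlier results of these data known. Alternatives covered thresholds, absence, TSS distance, gene starts, motif windows and each library left out. Sex chromosomes were not analysed. RefSeq promoters matched 492 of 646 nearest genes. The values of 1 listed gene with a member are not reported here.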

Additional observations from a re-analysis of the deposited data

How the results depend on the processing

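The number of members followed the settings that define it. It was 232 at a pileup threshold of 0.5, 1200 at 0.15, 451 when no IRF8KO row was allowed within 200 bp, 426 within 500 bp of a TSS and 1065 within 2 kb. It was 191 when no IRF8KO row was allowed within 1000 bp, an alternative chosen after seeing the data, and 985 to 1597 without 1 library in turn. A −log10 q of 2, gene starts only and a 50% overlap kept it within 1.5 times, at 734, 474 and 656. The members with another promoter region open in all 4 moved with it, to 173, 812, 287, 267 and 811 in the order of the first 5 settings, to 307 with gene starts only and to 775 to 1197 without 1 library. The promoter share of WT-only regions was 10.4% at 0.15, 8.67% at a −log10 q of 2, 8.71% with the 200 bp margin, 7.05% and 17.6% within 500 bp and 2 kb, 7.85% with gene starts and 12.7% to 13.9% without 1 library. The ETS-IRF share was 17.2% at 0.5, 11.0% at 0.15, 10.3% within 50 bp of the summit and 9.14% to 12.2% without 1 library, and the ISRE share was 4.75% at 0.15, 3.63% within 50 bp of the summit and 4.70% to 5.79% without 1 library. In each case fewer or more regions, or a narrower window, were searched by construction. Of the 45 members under the naming rule, 17 stayed members with the 1000 bp margin and 26 to 45 under the other alternatives.

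The fall of the ETS-IRF promoter share kept its sign under every alternative run, from −4.79 to −2.76 percentage points. With a replicate block that pairs libraries by replicate number it was −3.83 points with an exact sign-flip p of 0.5, the smallest that 2 pairs allow; the numbers are not stated to mark shared animals or days.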
